A study of Mus musculus with 12 samples.

Results

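Neutrophil marker genes were followed in the back skin of mice: Ly6g, Retnlg, Fpr1, Fpr2, Mmp8, Clec4d, Clec4e, Trem1, Stfa2l1 and Stfa3. These 10 genes were taken by name from a count table of 56923 genes, and all 10 held enough reads to be tested. Ly6g, Trem1 and Stfa2l1 passed the filter on low counts only through the mice given imiquimod. The skin came from 12 female mice aged 8 to 10 weeks, 3 in each of 4 groups. WT mice and mice labelled Lcn2-/-, which the study keeps on a C57BL/6 background with WT littermates as controls, received vehicle cream (the control groups) or 5% IMQ cream (the IMQ groups) on the shaved back each day for 6 days. IMQ (imiquimod) is a ligand of Toll-like receptors that produces psoriasis-like lesions in mouse skin. The sample labels write LCN2 KO in the titles, give the genotype as a knockdown and name no treatment for the control mice. Whole skin was sequenced, so each library mixes epidermis, dermis, muscle, vessels and blood.

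The count totals of the mice ran from 16448226 to 28592110. Values below are read counts, or CPM (counts scaled to library size, with TMM factors). Scaled to the count totals without those factors, 3 counts were worth 0.105 to 0.182 CPM. Lcn2 itself did not mark the labelled genotype: 136, 201 and 86 reads were counted on it in the WT control mice, 320, 173 and 357 in the control mice labelled Lcn2-/-, 1010, 2723 and 1572 in the WT IMQ mice and 561, 511 and 830 in the IMQ mice labelled Lcn2-/-. In CPM each labelled control mouse lay above each WT control mouse, and each labelled IMQ mouse lay below each WT IMQ mouse (log2 -1.49, adjusted p = 0.0525 with edgeR). The study, whose methods name DESeq2, lists Lcn2 among the genes lower in its Lcn2-/- IMQ mice than in its WT IMQ mice. On the counts used here DESeq2 called 1 gene of the granule list described below lower in that comparison. Lcn2 had the lowest fitted value of the tested genes in that list (log2 -1.49). The study also measured LCN2 protein by Western blot and Lcn2 RNA by qPCR in such mice. The exons that the allele lacks are not given in the sources used here, so counts over the whole gene cannot check the label, and every genotype comparison below is between labels. The tissue markers were those of skin, with summed keratinocyte markers between 5593 and 57661 CPM and summed retina markers, checked because the extraction note in the labels speaks of another tissue, between 0.471 and 2.91 CPM.

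Neutrophils are short-lived granulocytes that leave the blood for inflamed tissue, where they sense bacterial and damage products, release preformed granules and shed DNA traps. In psoriasis-like skin they gather in the upper epidermis as microabscesses. The 10 genes cover what such a cell shows and makes: a lineage surface antigen (Ly6g), receptors for formyl peptides (Fpr1 and Fpr2), C-type lectins that bind microbial and damage-derived lipids (Clec4d and Clec4e), an amplifying receptor of the immunoglobulin family (Trem1), a granule collagenase (Mmp8), a secreted resistin-like protein (Retnlg) and inhibitors of cysteine proteases (Stfa2l1 and Stfa3). Stefins of the Stfa family are also made by keratinocytes, so they are described apart from the other 8 genes. Trem1 is also found on monocytes, so not all of the 8 are particular to neutrophils.

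Promoters are printed for 5 of the genes, and matches are counted over all 10. Granulocyte genes are known as targets of the C/EBP factors and of PU.1, which binds ETS motifs. Whether these factors acted on the 10 genes was not tested. The printed windows include those of Ly6g, Mmp8 and Clec4e, which hold a C/EBP match, so they do not stand for all 10. RefSeq promoter windows (GRCm38.p6, from 250 bases before to 50 after the start) were found for all 10 genes, Ly6g with a pair of overlapping windows. Capitals mark matches to the ETS core AGGAAG, the C/EBP half-site pair TTGCNNAA, the TATA box TATAAA or the AP-1 site TGANTCA, each searched on both strands. Where motifs overlapped, each match was counted.
Ly6g promoter (chr15:75155011-75155310, plus strand): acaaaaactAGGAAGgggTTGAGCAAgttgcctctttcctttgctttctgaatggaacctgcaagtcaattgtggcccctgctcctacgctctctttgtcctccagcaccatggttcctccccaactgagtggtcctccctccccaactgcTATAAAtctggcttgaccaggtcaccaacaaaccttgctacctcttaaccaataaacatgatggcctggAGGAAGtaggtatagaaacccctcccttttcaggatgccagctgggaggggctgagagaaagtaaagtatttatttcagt
Mmp8 promoter (chr9:7558179-7558478, plus strand): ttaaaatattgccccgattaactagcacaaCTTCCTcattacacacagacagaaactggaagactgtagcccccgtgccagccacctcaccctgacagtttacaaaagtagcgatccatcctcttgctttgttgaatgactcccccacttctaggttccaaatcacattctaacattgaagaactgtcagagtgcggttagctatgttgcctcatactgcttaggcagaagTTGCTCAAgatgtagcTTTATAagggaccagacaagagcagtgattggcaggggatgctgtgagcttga
Clec4e promoter (chr6:123289822-123290121, minus strand): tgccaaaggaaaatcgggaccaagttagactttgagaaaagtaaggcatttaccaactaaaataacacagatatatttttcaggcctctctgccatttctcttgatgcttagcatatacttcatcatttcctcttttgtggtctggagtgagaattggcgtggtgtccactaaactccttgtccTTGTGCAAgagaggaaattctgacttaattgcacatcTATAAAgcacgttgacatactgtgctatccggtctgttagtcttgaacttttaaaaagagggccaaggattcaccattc
Stfa2l1 promoter (chr16:36156561-36156860, plus strand): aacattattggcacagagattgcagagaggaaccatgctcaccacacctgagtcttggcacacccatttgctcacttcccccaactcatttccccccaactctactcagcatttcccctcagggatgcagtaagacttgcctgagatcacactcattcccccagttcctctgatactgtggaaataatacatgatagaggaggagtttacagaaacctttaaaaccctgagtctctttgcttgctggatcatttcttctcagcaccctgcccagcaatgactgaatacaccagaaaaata
Stfa3 promoter (chr16:36455343-36455642, minus strand): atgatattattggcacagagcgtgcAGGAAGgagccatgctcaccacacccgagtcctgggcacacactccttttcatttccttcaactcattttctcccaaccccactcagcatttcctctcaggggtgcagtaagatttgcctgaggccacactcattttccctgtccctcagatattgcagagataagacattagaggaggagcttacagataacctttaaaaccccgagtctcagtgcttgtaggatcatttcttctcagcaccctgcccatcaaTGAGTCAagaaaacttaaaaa
The ETS core was found in windows of 5 of the 10 genes and in 35.1% of all 32544 promoters, and the C/EBP sequence in 4 of the 10 genes and 10.8% of promoters. The TATA box was found in 5 of the 10 genes and 13.6% of promoters. Its positions from the start were -29 in Clec4e, -3 in Mmp8 (on the other strand), -130 in Fpr2 and -227 in Fpr1. In Ly6g it stood at -99 in the printed window and -167 in the other. An AP-1 site was found in 1 of the 10 genes (Stfa3) against 7.79% of promoters, and the NF-kappaB consensus, searched likewise, in 0 of the 10 genes against 0.415%. The Stfa2l1 window held none of the sequences searched. A match is a description of these letters and not of a bound factor. The Stfa2l1 and Stfa3 windows were alike, with 248 identical bases of 306 alignment columns (81.0%), whereas Clec4d and Clec4e shared 49.2% of columns and Fpr1 and Fpr2 52.0%, although both pairs are neighbours. Fpr1 and Fpr2 lie 3883 bases apart on chromosome 17 and Clec4d and Clec4e lie 6523 bases apart on chromosome 6, each pair on opposite strands, while Stfa2l1 and Stfa3 lie 288583 bases apart on chromosome 16.

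With IMQ, all 10 genes were higher in both genotypes. In WT skin the rises ran from 3.44 (Ly6g) to 6.84 (Stfa2l1) on the log2 scale, with adjusted p between 1.66e-05 and 0.0127, and the median was 4.23 against -0.02 over all genes tested. In skin labelled Lcn2-/- they ran from 2.31 (Fpr2) to 6.42 (Stfa2l1), with adjusted p between 4.52e-05 and 0.0220, and the median was 3.94 against -0.05. Of the 18529 genes tested, 14.2% were called higher in WT skin and 14.1% in labelled skin, and 14.3% and 11.2% were called lower (an adjusted p under 0.05 in the quasi-likelihood test of edgeR). In both genotypes the IMQ mice lay above the control mice without overlap for 10 of 10 genes, which was so for 20.1% of all genes tested in WT skin and 23.1% in labelled skin. Ly6g, Trem1 and Stfa2l1 entered the test through their IMQ values, so their part in these counts is no independent support. In whole skin, more cells of a type and more RNA per cell cannot be told apart, so these are levels of RNA in the tissue and not cell numbers.

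**Figure D1:**
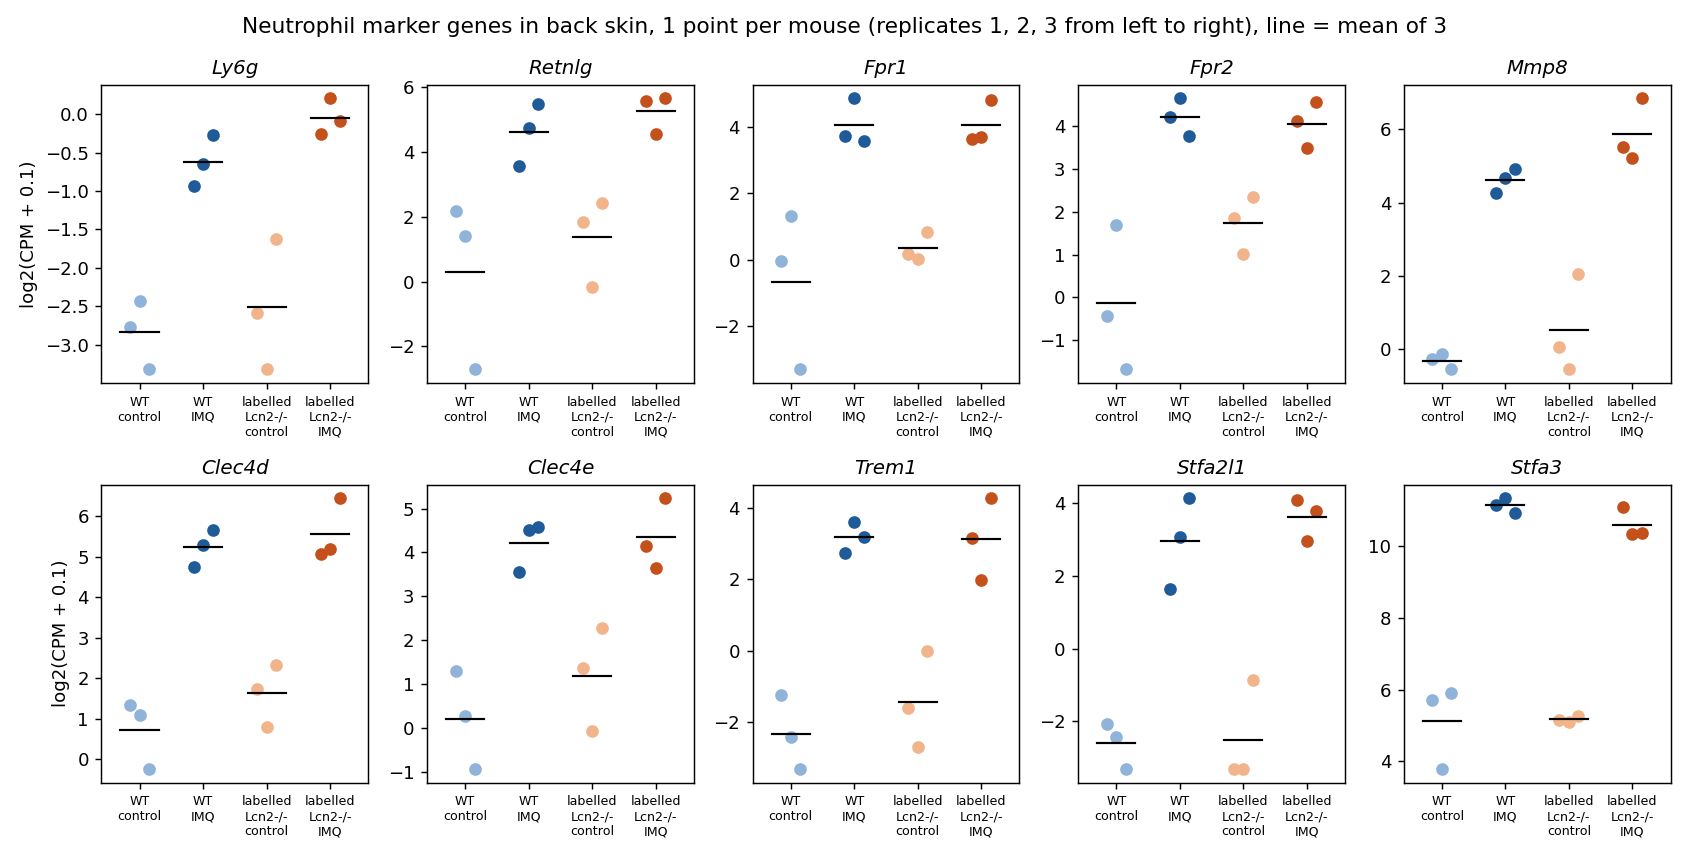
Level of each gene in each mouse as log2(CPM + 0.1), with 1 point per mouse, 3 mice per group and a line at the mean of the 3 log values. In each of the 10 panels the 3 IMQ mice of a genotype lie above its 3 control mice, and Stfa3 lies far above the other genes in every group.

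Ly6g (chr15:75155240-75159126, plus strand) encodes the lipid-anchored surface antigen by which mouse neutrophils are usually stained. It held 1, 2 and 0 reads in the WT control mice, 7, 8 and 15 in the WT IMQ mice, 2, 0 and 5 in the labelled control mice and 12, 18 and 14 in the labelled IMQ mice. The gene was close to absent in control skin and reached at most 1.05 CPM in any mouse, so its values rest on few reads. From the 3 reads over the WT control mice to the WT IMQ mice the ratio was 12.2 with a 95% counting interval of 3.81 to 62.7, and the fitted rise was 3.44 (SE 0.87, adjusted p = 0.0125). In labelled skin the rise was 3.08 (SE 0.76, adjusted p = 0.0129), and it missed the threshold without labelled control mouse 1 (adjusted p = 0.0511). Without WT control mouse 2 the WT rise was 4.21, and without labelled control mouse 3 the labelled rise was 4.28.

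The formyl peptide receptors guide neutrophils to bacterial and mitochondrial peptides, and Fpr2 also binds serum amyloid A and annexin A1. Fpr1 (chr17:17876471-17883940, minus strand) held 19, 56 and 0 reads in the WT control mice, 218, 435 and 245 in the WT IMQ mice, 31, 17 and 38 in the labelled control mice and 203, 223 and 476 in the labelled IMQ mice. Fpr2 (chr17:17887824-17893952, plus strand) held 14, 73 and 4 reads in the WT control mice, 303, 369 and 278 in the WT IMQ mice, 107, 36 and 111 in the labelled control mice and 282, 189 and 393 in the labelled IMQ mice. WT control mouse 2 was the highest of its group for both receptors and WT control mouse 3 the lowest, yet neither reached an IMQ mouse. Fpr1 rose 16.0-fold in WT skin (log2 interval 2.25 to 5.75, adjusted p = 0.00368) and 14.8-fold in labelled skin (log2 3.89, SE 0.79, adjusted p = 0.00517). Fpr2 rose 13.8-fold in WT skin (log2 3.78, SE 0.70, adjusted p = 0.00229) and 4.96-fold in labelled skin (log2 2.31, SE 0.64, adjusted p = 0.0220). Without WT control mouse 2 the WT rises were 5.29 for Fpr1 and 5.40 for Fpr2 on the log2 scale. The Fpr2 rise in labelled skin lost its call most often, since it missed the threshold without labelled control mouse 1, labelled control mouse 2, labelled IMQ mouse 1 or labelled IMQ mouse 3 (adjusted p between 0.0532 and 0.0827). Of the stretches of 50 bases in Fpr2 transcripts, 31.5% also occur in Fpr1, Fpr3 or Gm5966, and in Fpr1 0.0784% are shared. At the read length of 150 bases 1.27% of the Fpr2 stretches are shared, with Gm5966. Fpr2 also overlaps Fpr3 on the same strand.

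Clec4d (also called MCL) and Clec4e (Mincle) are paired lectins that signal through the adaptor encoded by Fcer1g. Clec4d (chr6:123262111-123275265, plus strand) held 53, 47 and 14 reads in the WT control mice, 445, 586 and 1047 in the WT IMQ mice, 99, 31 and 111 in the labelled control mice and 551, 622 and 1457 in the labelled IMQ mice. Clec4e (chr6:123281789-123289870, minus strand) held 51, 26 and 8 reads in the WT control mice, 192, 336 and 493 in the WT IMQ mice, 76, 16 and 107 in the labelled control mice and 287, 213 and 626 in the labelled IMQ mice. In CPM both lectins put the mice in the same order within every group but the labelled IMQ group, and labelled IMQ mouse 3 was the highest of all 12 for both. Clec4d rose 22.1-fold in WT skin (log2 4.47, SE 0.55, adjusted p = 1.74e-04) and 15.8-fold in labelled skin (log2 3.98, SE 0.52, adjusted p = 4.82e-04). Clec4e rose 14.7-fold in WT skin (log2 3.88, SE 0.70, adjusted p = 0.00198) and 8.23-fold in labelled skin (log2 3.04, SE 0.65, adjusted p = 0.00675). The Clec4e rise was 4.60 on the log2 scale without WT control mouse 1, and in labelled skin 3.70 without labelled control mouse 3 and 2.46 without labelled IMQ mouse 3. No stretch of 50 bases of either gene's transcripts was found in another gene.

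Trem1 amplifies Toll-like receptor signals on neutrophils and monocytes through the adaptor encoded by Tyrobp. Trem1 (chr17:48232768-48246924, plus strand) held 7, 2 and 0 reads in the WT control mice, 109, 180 and 185 in the WT IMQ mice, 7, 1 and 20 in the labelled control mice and 144, 66 and 322 in the labelled IMQ mice. It was close to the limit of detection in control skin and at 3.86 CPM or more in every IMQ mouse. It rose by 5.97 on the log2 scale in WT skin (SE 0.95, adjusted p = 9.77e-04) and by 4.74 in labelled skin (SE 0.84, adjusted p = 0.00255). The WT rise was 7.43 without WT control mouse 1, and the labelled rise was 6.03 without labelled control mouse 3 and 3.98 without labelled IMQ mouse 3. A predicted gene lies over Trem1 on the other strand (AC241601.2), and the sources used here do not say whether strand was used in counting.

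Mmp8 encodes neutrophil collagenase, which is stored in the specific granules. Mmp8 (chr9:7558456-7568485, plus strand) held 16, 19 and 11 reads in the WT control mice, 314, 380 and 625 in the WT IMQ mice, 29, 11 and 90 in the labelled control mice and 754, 637 and 1906 in the labelled IMQ mice. The WT control mice differed little from each other (0.714 ± 0.118 CPM, SD, n = 3), and the labelled IMQ mice spread widely (65.9 ± 42.2 CPM, SD, n = 3), with labelled IMQ mouse 3 at 114 CPM. Mmp8 rose 34.4-fold in WT skin (log2 5.11, SE 0.69, adjusted p = 3.33e-04) and 35.5-fold in labelled skin (log2 5.15, SE 0.65, adjusted p = 3.71e-04). In labelled skin the rise was 6.36 without labelled control mouse 3 and 4.49 without labelled IMQ mouse 3 on the log2 scale.

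Retnlg encodes resistin-like gamma, a small secreted protein made mainly by granulocytes in the mouse. Retnlg (chr16:48872621-48874496, plus strand) held 96, 59 and 1 reads in the WT control mice, 195, 396 and 921 in the WT IMQ mice, 106, 15 and 118 in the labelled control mice and 774, 402 and 832 in the labelled IMQ mice. WT control skin varied widely, with a single read in mouse 3 and 96 in mouse 1, and still lay below every WT IMQ mouse in CPM. Retnlg rose 11.7-fold in WT skin (log2 3.54, SE 0.89, adjusted p = 0.0127) and 12.5-fold in labelled skin (log2 3.64, SE 0.88, adjusted p = 0.0125). The WT rise missed the threshold without WT control mouse 2 (adjusted p = 0.0553), and without WT control mouse 1 it was 4.35 on the log2 scale.

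Stefins bind and block lysosomal cysteine proteases of the cathepsin type. Stfa2l1 (chr16:36156811-36161953, plus strand) held 3, 2 and 0 reads in the WT control mice, 50, 123 and 362 in the WT IMQ mice, 0, 0 and 10 in the labelled control mice and 277, 131 and 230 in the labelled IMQ mice. It behaved like the other low genes, with almost no reads in control skin. Stfa2l1 rose by 6.84 on the log2 scale in WT skin (SE 1.09, adjusted p = 9.45e-04) and by 6.42 in labelled skin (SE 1.00, adjusted p = 0.00128). Labelled control mouse 3 held all 10 reads of its group, and without it the fitted rise was 10.97, a value set against mice without a read. Without labelled control mouse 1 the labelled rise was 5.71, and the WT rise was 7.49 without WT control mouse 1 and 6.07 without WT IMQ mouse 3. Of the stretches of 50 bases in its transcript, 24.6% also occur in Gm49652 or Stfa2, but at the read length of 150 bases 0 are shared.

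Stfa3 (chr16:36450537-36455392, minus strand) stood apart by its level. It held 1140, 317 and 1129 reads in the WT control mice, 37479, 38705 and 40451 in the WT IMQ mice, 1081, 635 and 864 in the labelled control mice and 36247, 22243 and 22043 in the labelled IMQ mice. The WT IMQ mice agreed closely with each other, and WT control mouse 2 was the lowest of all 12 mice, although for the other 9 genes it was never the lowest of its group. Stfa3 rose 54.1-fold in WT skin (log2 5.76, SE 0.50, adjusted p = 1.66e-05) and 44.8-fold in labelled skin (log2 5.49, SE 0.50, adjusted p = 4.52e-05). No stretch of 50 bases of its transcript was found in another gene.

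Per kilobase of exon, Stfa3 had the highest level of the 10 genes in all 4 groups, at 102 CPM per kb in WT control skin and 5527 in WT IMQ skin. Retnlg came next with 46.7 CPM per kb in WT IMQ skin, followed by Clec4d (24.4), Stfa2l1 (22.9), Fpr2 (14.6), Fpr1 (13.7), Mmp8 (10.3), Clec4e (3.90), Trem1 (3.08) and Ly6g (0.597), all as CPM per kb. In that order the mice of neighbouring genes overlapped except between Stfa3 and Retnlg, between Mmp8 and Clec4e and between Trem1 and Ly6g, so these mice do not separate neighbours from Retnlg to Mmp8. Genes farther apart in the order were separated, as all mice of Retnlg lay above those of Fpr2 and Mmp8, and all mice of Clec4d above those of Mmp8. In WT control skin the mice of all neighbouring genes overlapped below Stfa3. In labelled IMQ skin Mmp8 stood at 27.2 CPM per kb, ahead of Fpr1 (13.6) and Fpr2 (13.3), but its mice overlapped with those of Fpr1.

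The genes also moved together from mouse to mouse within groups. WT control mouse 3 had the lowest CPM of its group for 9 of the 10 genes, labelled control mouse 2 the lowest for 9, and labelled control mouse 3 the highest for all 10. Among the IMQ mice, labelled mouse 3 was the highest for 7 genes and labelled mouse 2 and WT mouse 1 were each the lowest of their group for 7. Over the 12 mice the correlation of each gene with the mean of the other 9 on a standardised log2 scale lay between 0.896 (Stfa3) and 0.994 (Clec4d), a description that the IMQ and control groups largely set. Stfa3 was the exception among the control mice, where WT control mouse 3, lowest for the other 9 genes, had the highest Stfa3 level of its group (60.0 CPM).

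The next comparison was between the labels under IMQ. None of the 10 genes was called different by edgeR's quasi-likelihood test, none by DESeq2, which gave 9 of them an adjusted p, and 1 (Mmp8) had an unadjusted p under 0.05, which 27.0% of all genes tested had. Of all genes tested, 2.19% were called higher and 2.6% lower in the IMQ mice labelled Lcn2-/-. By sign, 7 of the 10 genes were higher and 3 lower in the labelled mice, and the median difference was 0.31 on the log2 scale against -0.02 over all genes. The labelled IMQ mice lay above the WT IMQ mice without overlap for 2 genes, Mmp8 and Ly6g, against 16.0% of all genes tested, and for Ly6g the gap was narrow (0.733 against 0.727 CPM).

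Mmp8 averaged 24.9 ± 5.65 CPM in the WT IMQ mice and 65.9 ± 42.2 CPM in the labelled IMQ mice (SD, n = 3 each), a difference of 1.40 on the log2 scale (95% interval 0.22 to 2.58). Its adjusted p in the edgeR fit was 0.128, and it passed a fold above 2 with an unadjusted p under 0.05, as 3.1% of all genes tested did in that direction. Without labelled IMQ mouse 3 the difference was 0.74 (adjusted p = 0.428). For the surface genes the differences were 0.62 for Ly6g (95% interval -0.79 to 2.04), 0.43 for Clec4d (-0.57 to 1.43), 0.22 for Clec4e (-1.08 to 1.51) and 0.21 for Trem1 (-1.25 to 1.67). The formyl peptide receptors were nearly level between the labels, at -0.01 for Fpr1 (95% interval -1.49 to 1.47) and -0.13 for Fpr2 (-1.44 to 1.18). Retnlg differed by 0.54 (95% interval -1.18 to 2.25), Stfa2l1 by 0.41 (-1.12 to 1.94, and 1.18 without WT IMQ mouse 3) and Stfa3 by -0.50 (-1.40 to 0.40). For 6 of the 10 genes the interval reached beyond 2-fold in both directions, so the data do not show that the labels were equal. The signs of Clec4d, Clec4e and Trem1 turned without labelled IMQ mouse 3 (-0.15, -0.37 and -0.54).

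**Figure D2:**
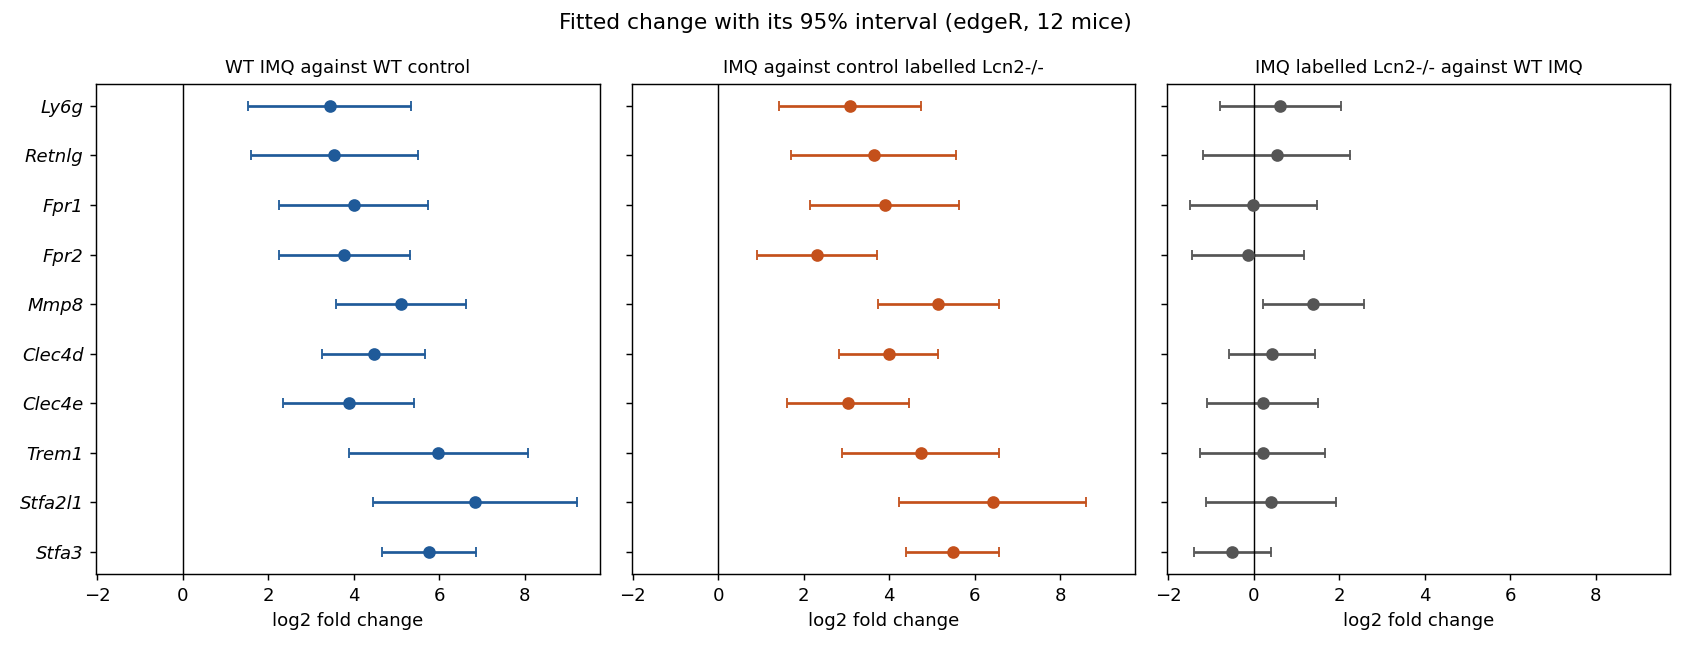
Fitted log2 fold change of each gene with its 95% interval in 3 comparisons, from the edgeR fit over 12 mice. All 10 intervals lie above 0 for IMQ against control in both genotypes, whereas between the labels under IMQ 9 of 10 intervals span 0, the exception being Mmp8.

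Between the control groups, none of the 10 genes was called by edgeR or by DESeq2, and 0 had an unadjusted p under 0.05, against 6.6% of all genes tested. Of all genes tested, 0.0108% were called in either direction. By sign 9 of the 10 genes were higher in the labelled control mice, from 0.10 (Fpr1) to 1.45 (Trem1) on the log2 scale, and Stfa3 was at -0.23. Fpr2 came closest to the threshold (log2 1.35, 95% interval -0.13 to 2.82, adjusted p = 0.814). The groups overlapped for all 10 genes, while 4.19% of all genes tested were higher and 5.18% lower without overlap. The difference between the IMQ responses was called for 0 of the 10 genes by edgeR and by DESeq2, 0 had an unadjusted p under 0.05 (24.1% of all genes tested had one), and 2.15% of all genes tested were called. Its values ran from -1.47 for Fpr2 (95% interval -3.44 to 0.50, adjusted p = 0.331) to 0.10 for Retnlg (-2.49 to 2.68), and the standard errors were up to 1.58 (Stfa2l1), so responses that differ by several fold were not detectable at this number of mice. The comparisons share groups of mice and are not independent of each other.

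Other neutrophil genes were read from lists of names. Beside the edgeR counts of these lists, 14.2% of all genes tested were called higher and 14.3% lower with IMQ in WT skin. In labelled skin the shares were 14.1% and 11.2%, and between the labels under IMQ 2.19% and 2.6%. For DESeq2 no share over all genes is given, so its counts stand without a background. Of 15 genes listed for granule proteins and related neutrophil proteins, 13 were tested. In WT skin 6 rose and 2 fell with IMQ, with a median of 2.52 on the log2 scale against -0.02 over all genes. The rises were those of S100a9 and S100a8, which encode the calprotectin subunits also made by keratinocytes, Chil3, a chitinase-like protein, Ngp, a granule protein of the cathelin family, Lcn2 and Cd177, a surface partner of proteinase 3. S100a9 averaged 7.06 ± 3.72 CPM in WT control and 4777 ± 996 CPM in WT IMQ skin (SD, n = 3 each), a rise of 9.40 (SE 0.65, adjusted p = 3.24e-06). S100a8 rose by 9.25 (adjusted p = 1.66e-05). Ngp held 1, 4 and 3 reads in the WT control mice and 67, 34 and 103 in the WT IMQ mice, a rise of 4.85 (SE 0.68, adjusted p = 4.06e-04). Chil3 rose by 5.67 (adjusted p = 5.05e-05), Lcn2 by 4.03 (adjusted p = 8.10e-05) and Cd177 by 3.17 (adjusted p = 0.00134).

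No gene of the primary granules, whose proteins are made by precursors in the bone marrow, was called higher. Mpo and Elane were too low to be tested, at 11 and 21 reads or fewer in every mouse, Ctsg was not called in WT skin (log2 0.83, adjusted p = 0.382), and Prtn3 was lower with IMQ (log2 -2.14, SE 0.71, adjusted p = 0.0424, up to 0.176 with a mouse left out). Padi4, whose enzyme citrullinates histones in DNA traps, was also lower (log2 -1.99, SE 0.27, adjusted p = 2.89e-04). In WT control skin Padi4 averaged 23.3 CPM and Prtn3 4.81 CPM, where Ly6g held 2 reads or fewer per mouse. Which cells gave these levels was not tested. In labelled skin 9 of the 13 tested genes of this list rose and 1 (Padi4) fell. Between the labels under IMQ, DESeq2 called 3 higher and 1 lower, and edgeR called 1: Camp, which encodes the cathelicidin peptide of the specific granules. Camp held 11, 0 and 14 reads in the WT IMQ mice and 86, 34 and 62 in the labelled IMQ mice, a difference of 2.97 (SE 0.76, adjusted p = 0.0489), with adjusted p between 0.0234 and 0.179 when each mouse was left out in turn.

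Of 18 receptor and adhesion genes 15 were tested, and 7 rose and 0 fell in WT skin, with a median of 1.44, which was the same with Cxcr1 set to its bound. Cxcr1 and Cxcr2 encode the chemokine receptors by which neutrophils follow CXC ligands. Cxcr1 had 0 reads in the 3 WT control mice and 10, 7 and 15 in the WT IMQ mice, at least 13.1-fold higher against a floor of 3 counts over the group. Cxcr2 rose by 4.41 (SE 0.63, adjusted p = 4.85e-04), and Csf3r, the receptor of the granulocyte growth factor, by 2.52 (SE 0.49, adjusted p = 0.00313). Ltb4r1, the leukotriene receptor, rose by 2.12 (adjusted p = 1.95e-05) and Itgam, the integrin chain shared with macrophages, by 1.56 (adjusted p = 0.0384, up to 0.120 with a mouse left out). In labelled skin 13 of the 15 rose and 0 fell, and between the labels under IMQ 0 were called by edgeR, with 6 at an unadjusted p under 0.05 and 3 called higher and 2 lower by DESeq2.

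Ligands and growth factors that draw or sustain neutrophils were higher too. Of 12 such genes 11 were tested, and 9 rose and 0 fell in WT skin, with a median of 5.69, which was the same with Csf3 set to its bound. Csf3, the granulocyte growth factor itself, had 0 reads in the WT control mice and 100, 70 and 69 in the WT IMQ mice, at least 97.6-fold higher. The Saa genes encode serum amyloid A, a ligand of Fpr2. Saa3 rose by 9.43 (SE 0.85, adjusted p = 1.95e-05) and Saa1 by 6.57 (SE 0.90, adjusted p = 3.53e-04), and Saa2 held 3 reads over the WT control mice against 1167 over the WT IMQ mice, a ratio of 476 (95% counting interval 163 to 2313). The CXC chemokine Cxcl3 rose by 5.69 (SE 0.92, adjusted p = 0.00101), and for Cxcl5 the ratio was 80.4 (95% counting interval 27.1 to 393). In labelled skin 6 of the 11 rose and 0 fell. There Csf3 was not called (adjusted p = 0.222), with 0, 0 and 16 reads in labelled control mice and 16, 19 and 9 in labelled IMQ mice. Anxa1, which encodes the Fpr2 ligand annexin A1, was the 1 gene of the list that edgeR called between the labels under IMQ (DESeq2 called 2 lower), at 1454 ± 103 CPM in the WT IMQ mice and 833 ± 194 CPM in the labelled IMQ mice (SD, n = 3 each, log2 -0.80, SE 0.16, adjusted p = 0.0276).

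**Figure D3:**
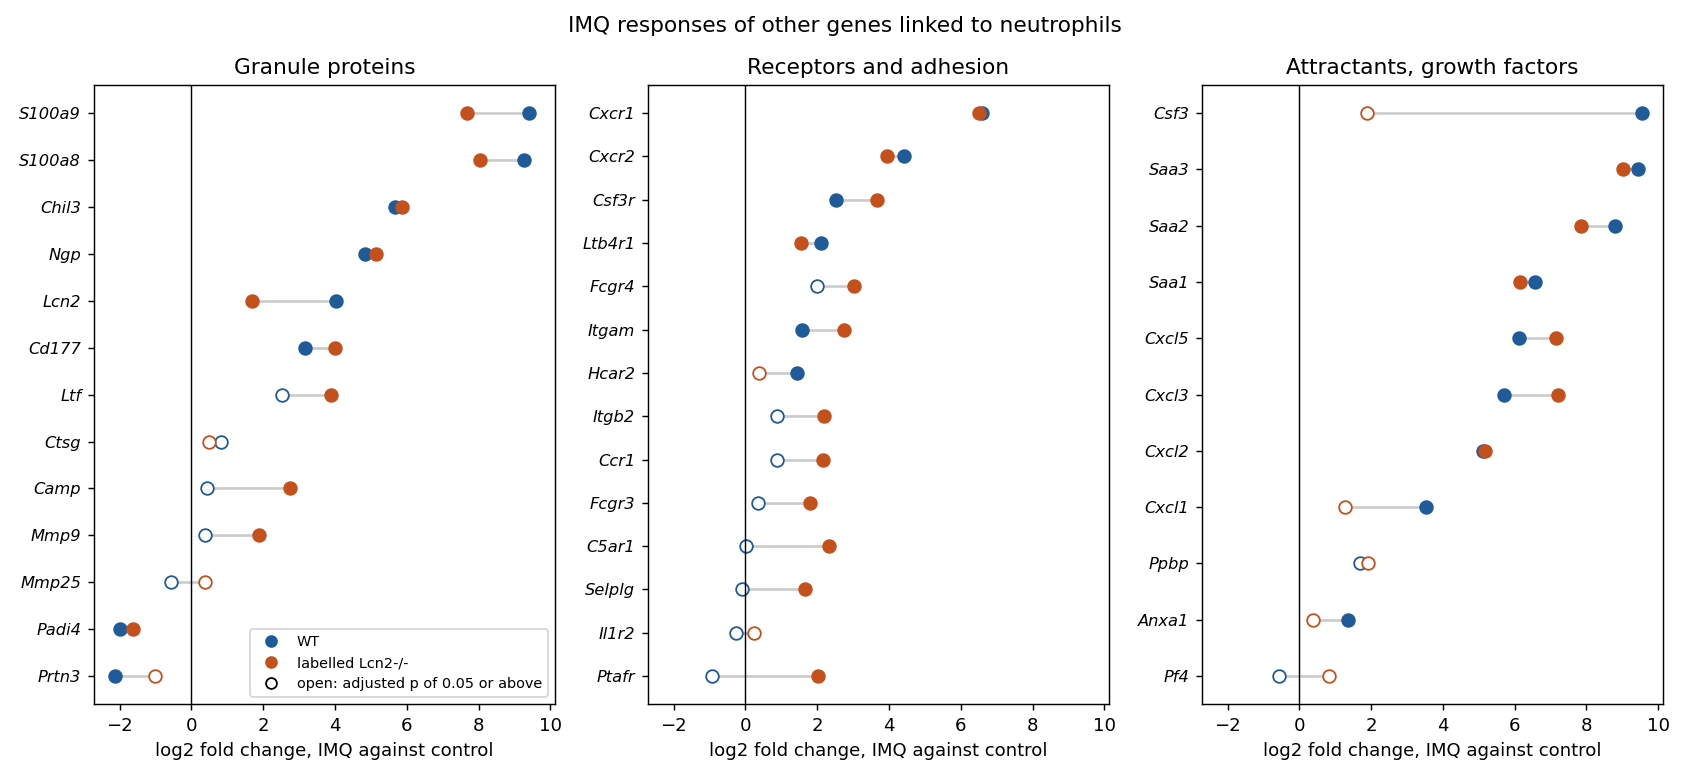
Log2 fold change with IMQ of tested genes of the granule, receptor and attractant lists in WT skin and in skin labelled Lcn2-/-, with filled points where the adjusted p was under 0.05. Most genes lie to the right of 0 in both genotypes, Padi4 and Prtn3 lie to the left, and more of the receptor genes are filled for labelled skin than for WT skin. 1 tested receptor gene is not plotted. The WT points of Csf3 and Cxcr1 are fitted against control mice with 0 reads and are no measured fold.

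The adaptors and kinases that carry signals from Clec4d, Clec4e and Trem1 moved little in WT skin. Of the 10 genes, 3 rose and 0 fell, with a median of 0.65: Bcl10 (log2 0.71, SE 0.09, adjusted p = 1.87e-04), Malt1 (log2 0.53, SE 0.13, adjusted p = 0.0107) and the kinase gene Fgr (log2 1.22, SE 0.33, adjusted p = 0.0177). With a mouse left out, the adjusted p reached 0.0518 for Malt1 and 0.0564 for Fgr. In labelled skin 9 of the 10 rose, all but Malt1 (log2 -0.21, adjusted p = 0.268), and between the labels under IMQ 0 were called by edgeR, with 2 at an unadjusted p under 0.05 and 1 called lower by DESeq2.

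The other stefin genes were higher as well. Of 16 listed names 11 were in the table and 10 were tested, the pair from the neutrophil list included, and all 10 rose in both genotypes, with medians of 7.04 in WT and 6.49 in labelled skin. BC100530 averaged 23.5 ± 15.7 CPM in WT control and 2843 ± 151 CPM in WT IMQ skin, and Stfa1 averaged 6.58 ± 4.40 and 940 ± 151 CPM (SD, n = 3 each). BC117090 rose by 8.92 (SE 0.47, adjusted p = 1.21e-06), Gm5416 by 8.01 (SE 0.57, adjusted p = 3.81e-06) and Stfa2 by 7.65 (SE 0.32, adjusted p = 3.30e-07), and Gm5483 held 2 reads over the WT control mice, a ratio of 295 (95% counting interval 81.3 to 2444). Between the labels under IMQ 9 of the 10 were lower by sign, and 0 were called by edgeR, with 2 at an unadjusted p under 0.05 and 1 called lower by DESeq2. These genes are near copies of each other, so their reads may be split unevenly among them.

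Markers of other cells moved beside the 10 genes, and their part in the results was not tested. Over all genes tested, 14.2% were called higher and 14.3% lower with IMQ in WT skin, and 14.1% and 11.2% in labelled skin. Of 12 keratinocyte markers 10 rose and 1 fell with IMQ in each genotype, and their summed level was between 5593 and 8706 CPM in the WT control, 37725 and 57661 in the WT IMQ, 5617 and 7591 in the labelled control and 22440 and 33235 in the labelled IMQ mice. Stfa3 and the keratinocyte sum shared the order WT IMQ above labelled IMQ in their means. For Stfa3 the groups overlapped, at 1959 to 2602 CPM in the WT IMQ and 1300 to 2213 CPM in the labelled IMQ mice. The sum of the 8 genes other than stefins had the opposite order of means and also overlapped. It lay between 108 and 184 CPM in the WT IMQ and between 139 and 361 CPM in the labelled IMQ mice. Only labelled IMQ mouse 3 (361 CPM) lay above all WT IMQ mice. Of 7 pan-leukocyte genes 0 were called by edgeR in WT skin, with 0 at an unadjusted p under 0.05 and 0 called by DESeq2, their median was 0.24 against -0.02 over all genes, and their sum ran from 506 to 1225 CPM in the WT control and from 836 to 1397 CPM in the WT IMQ mice. In labelled skin all 7 rose, from between 392 and 777 CPM to between 1392 and 1872 CPM. Macrophage markers rose for 3 of 13 genes in WT and for 11 of 13 in labelled skin, with sums of 1648 to 6029 CPM in the WT control, 3758 to 6184 in the WT IMQ, 1413 to 2840 in the labelled control and 5856 to 8285 in the labelled IMQ mice. WT control mouse 3 and labelled control mouse 2, which were the lowest for 9 of the 10 genes, also had the lowest leukocyte and macrophage sums of their groups.

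Red blood cell markers rose for 5 of 6 genes in WT and 3 of 6 in labelled skin, with sums of 24.9 to 139 CPM in the WT control, 181 to 599 in the WT IMQ, 106 to 239 in the labelled control and 339 to 1093 in the labelled IMQ mice. The shares of all genes tested that were called higher were 14.2% and 14.1%. Muscle markers fell for 4 of 6 genes in WT and 2 of 6 in labelled skin, where 14.3% and 11.2% of all genes tested were called lower. The sum of the 8 genes other than stefins was 2.02 to 12.2 CPM in the WT control mice and 108 to 184 CPM in the WT IMQ mice. In labelled skin it was 6.77 to 26.8 CPM in the control mice and 139 to 361 CPM in the IMQ mice. The part of blood and muscle in these sums was not tested.

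**Figure D4:**
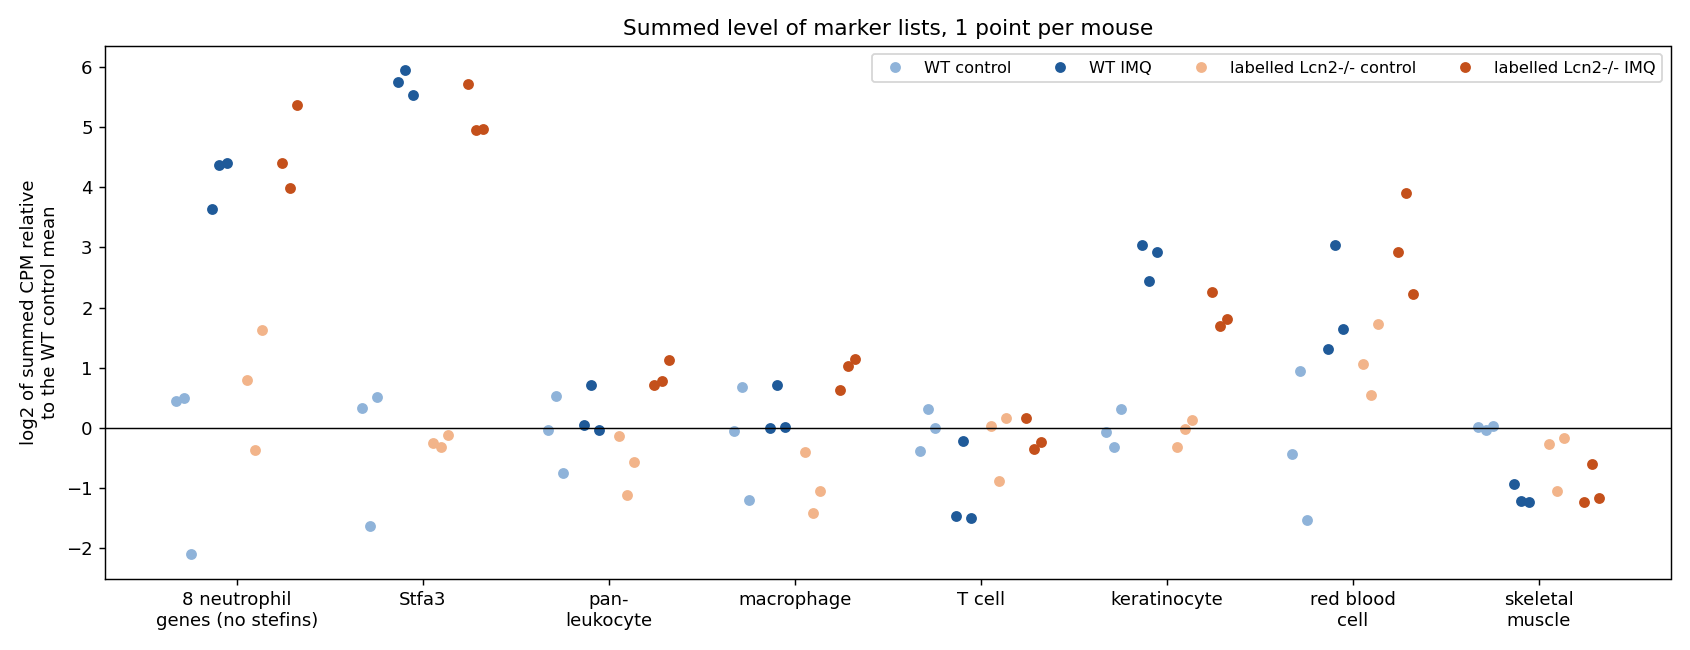
Summed CPM of marker lists in each mouse, relative to the mean of the WT control mice and on a log2 scale, with 1 point per mouse and 3 mice per group. The 8 neutrophil genes, Stfa3, the keratinocyte list and the red blood cell list separate IMQ from control mice in both genotypes. The pan-leukocyte and macrophage lists overlap between the WT groups.

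The tested genes whose pattern was most like that of the 10 were Il1rap (Pearson r = 0.986 over the 12 mice with the mean of the 10 standardised genes), Chil3 (0.980), Saa3 (0.980), Cd300lf (0.973), Tpsab1 (0.973), Mcemp1 (0.972), S100a9 (0.972) and Slpi (0.971). All 12 points share the split into IMQ and control mice, which raises each of these values. Within the 6 IMQ mice, r was 0.952 for Mcemp1 and 0.801 for Il1rap, but 0.469 for Slpi and -0.130 for Tpsab1, and within the 6 control mice it lay between 0.685 (S100a9) and 0.920 (Il1rap). Il1rap, a chain of the interleukin receptors, changed by less than the 10 genes, from 29.1 ± 2.48 CPM in WT control to 55.6 ± 2.49 CPM in WT IMQ skin, and from 31.7 ± 3.32 to 56.4 ± 6.96 CPM in labelled skin (SD, n = 3 each).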

How the data were processed

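RNA was sequenced from the back skin of 12 mice, and the authors deposited a table of raw read counts per gene, with Ensembl identifiers. The submitters' processing notes name HISAT and the build mm8. The counter and the annotation are not given in the sources used here, nor is the strand setting. Every gene column of the 12 mice was used, and 0 per-sample columns were left out. The extraction note in the labels speaks of retinas, while the tissue is given as skin. Symbols, positions and exon lengths came from GENCODE M21 on GRCm38, where 52073 of the 56923 identifiers (91.5%) had a symbol; the rest held 0.567% of counts. Promoter sequences were copied from a RefSeq table of GRCm38.p6, in which all 10 genes were found with 11 windows in all.

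Counts were analysed with edgeR 4.0.16 in R 4.3.3: filterByExpr (minimum count 10, minimum total 15) kept 18529 genes, libraries were TMM-scaled, and 1 quasi-likelihood model with 4 groups was fitted over the 12 mice, without covariates. The study's methods name DESeq2, which was run as an alternative (version 1.42.0). P-values were two-sided and adjusted by Benjamini-Hochberg over all genes tested, with a threshold of 0.05. The contrasts tested were IMQ against control in each genotype, the labels under each treatment, and the difference of the IMQ responses. The labels name no batch, and p-values measure the spread between these 12 mice. No pair of libraries of 1 group agreed within sampling noise. CPM are TMM-scaled, ± is the SD over 3 mice, and SE and 95% intervals belong to the fitted log2 fold changes. Floors of 3 counts and exact (Clopper-Pearson) intervals of count ratios cover counting error only.

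Named genes were the 10 genes, Lcn2, up to 6 called genes per neutrophil list with the largest change in WT skin or between the labels under IMQ, and the 8 tested genes with the highest correlation to the mean of the 10. Mpo, Elane, Ctsg, Prtn3, Padi4, Ptafr and Kit were named after their values were seen. The 10 genes and all lists were chosen with earlier results of these data known. 1 gene of the receptor list is counted with its list but not reported here by name. The scripts were tested on simulated counts. Alternatives were RLE size factors, DESeq2, all genes with a read, genes holding 10 or more counts in each mouse, a fit of the compared mice only, the replicate number as a block, 1 mouse omitted at a time, and a fold above 2 with an unadjusted p.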

Additional observations from a re-analysis of the deposited data

Results flagged for a closer look

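The IMQ response of 2 genes linked to neutrophils differed between the genotypes by the interaction term of the edgeR fit. These were 1 of 11 tested attractant genes and 1 of 15 tested receptor genes. None of the 10 genes, and 0 of 13 granule, 10 adaptor and 10 stefin genes, were called. Over all genes tested the share was 2.15%, so the count of 2 is not read as a result about neutrophil genes. Ptafr was named after its values were seen. Anxa1, the gene of the Fpr2 ligand annexin A1, rose in WT skin (log2 1.35, SE 0.16, adjusted p = 1.27e-04) and was not called in skin labelled Lcn2-/- (log2 0.38, adjusted p = 0.103), and the difference of the responses was -0.97 on the log2 scale (SE 0.23, adjusted p = 0.0498, between 0.0264 and 0.149 with each mouse left out). Its mean levels were 570 ± 46.9 CPM in the WT control, 1454 ± 103 in the WT IMQ, 642 ± 32.0 in the labelled control and 833 ± 194 in the labelled IMQ mice (SD, n = 3 each), and the summed keratinocyte markers also stood lower in the labelled IMQ mice (22440 to 33235 CPM) than in the WT IMQ mice (37725 to 57661 CPM), whose part in the difference was not tested. Ptafr, the receptor of platelet-activating factor, differed by 2.96 (SE 0.59, adjusted p = 0.0375). It held 1123, 1732 and 322 reads in the WT control mice, 397, 378 and 525 in the WT IMQ mice, 633, 215 and 265 in the labelled control mice and 830, 1231 and 940 in the labelled IMQ mice. The WT response was -0.94 (adjusted p = 0.108) and the labelled response 2.02 (adjusted p = 0.00589), and the adjusted p of the difference was under 0.05 in 3 of the 12 fits with a mouse left out (between 0.00265 and 0.127).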

How the results depend on the processing

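The 10 rises with IMQ kept their direction under every alternative run in both genotypes. With each mouse left out, 9 to 10 genes were called higher in WT skin and 8 to 10 in labelled skin, and 0 to 0 in each other direction and comparison. All 10 stayed called in both genotypes with RLE size factors, DESeq2 and the compared mice only. Without a filter on low counts, which raises the number of genes tested to 34819, Retnlg missed the threshold in WT skin (log2 3.51, adjusted p = 0.0636) and Retnlg (3.62, adjusted p = 0.0607) and Fpr2 (2.29, adjusted p = 0.0942) in labelled skin. With at least 10 counts in every mouse 3 genes could be tested, and all 3 were called in each genotype. Under IMQ, 1 gene (Mmp8) passed a fold above 2 with an unadjusted p under 0.05, and with RLE size factors 1 gene was higher without overlap in place of 2. Between the labels under IMQ, Fpr1 turned to 0.0085 with RLE size factors, 0.0086 with DESeq2, 0.0086 without a filter and 0.016 with the compared mice only, none of them called. Replicate numbers are shared between groups of different animals, and same-numbered mice did not deviate together in every pair (correlations between -0.55 and 0.20), so the numbers pair no mice. With the replicate block 10, 10, 0, 0 and 0 genes were called in the 5 comparisons, as without it, and Fpr1 (0.11) and Trem1 (-0.10) turned sign between the labels under IMQ and Stfa2l1 (0.071) in the difference of the responses. With a mouse left out, the sign turned for 11 of 120 values between the labels under IMQ, 8 of 120 between the controls and 23 of 120 in the difference of the responses, none of them called. The ranges with a mouse left out were, under IMQ, -0.50 to 0.53 for Fpr1, -0.41 to 0.12 for Fpr2, -0.15 to 0.67 for Clec4d, -0.37 to 0.51 for Clec4e, -0.54 to 0.61 for Trem1 and -0.017 to 1.18 for Stfa2l1. Between the controls they were -0.22 to 1.78 for Ly6g, -0.11 to 1.25 for Retnlg, -0.45 to 1.41 for Fpr1, -3.72 to 1.53 for Stfa2l1 and -0.62 to 0.12 for Stfa3. For the difference of the responses they were -1.13 to 0.85 for Ly6g, -0.71 to 0.65 for Retnlg, -1.39 to 0.45 for Fpr1, -0.62 to 1.26 for Mmp8, -2.69 to 0.056 for Trem1, -1.12 to 4.13 for Stfa2l1 and -0.61 to 0.15 for Stfa3. The causes of these moves were not tested. Ly6g, Trem1 and Stfa2l1 were at or under the floor of 3 counts in several control mice, so their control levels are limited by depth.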

Other observations

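Other cell types of the skin were read from marker lists. Of 7 T cell genes, 4 fell and 0 rose with IMQ in WT skin, and 1 rose and 0 fell in labelled skin, where 14.3% and 11.2% of all genes tested were called lower and 14.2% and 14.1% higher, with summed levels of 42.7 to 69.7 CPM in the WT control, 19.9 to 48.4 in the WT IMQ, 30.2 to 62.9 in the labelled control and 44.1 to 62.6 in the labelled IMQ mice. Of 6 mast cell genes, 1 rose in WT and 4 in labelled skin, and their sum was 349 to 437 CPM in the WT IMQ and 582 to 680 CPM in the labelled IMQ mice, where Kit was the 1 gene called between the labels (log2 0.74). Of 7 fibroblast genes, 3 fell and 0 rose in WT skin and 4 rose and 0 fell in labelled skin (against the same shares of all genes), and 3 were called higher in the labelled IMQ mice than in the WT IMQ mice (2.19% of all genes tested), with sums of 20206 to 20967 CPM against 10304 to 10929 CPM. Summed muscle genes were at 12191 to 12836 CPM in the WT control, 5369 to 6551 in the WT IMQ, 6039 to 11149 in the labelled control and 5356 to 8274 in the labelled IMQ mice.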
